A study of Mus musculus with 6 samples.

Results

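Enteroendocrine cells are the hormone-producing cells of the gut epithelium, and 10 genes that mark them were examined in colon epithelial cells of DSS-treated mice. The genes were taken as a fixed list of symbols: the peptide hormones Pyy, Gcg, Insl5, Sst, Cck and Nts, the granule proteins Chga and Chgb, the serotonin-forming enzyme Tph1 and the transcription factor Neurod1. Each symbol was found among the 55487 genes of the count table, and 9 of the 10 had enough counts to be tested. Bulk RNA sequencing was done on intestinal epithelial cells (IECs) released from the colon with EDTA, in 3 libraries of genotype label NSD2-FF, titled WT, and 3 of genotype label NSD2-FF-VILCRE. The first genotype, called Nsd2 f/f here, carries Nsd2 alleles flanked by loxP sites that are left in place. The second, called Nsd2 Vil-KO, carries the same alleles together with Cre under the Villin promoter, which is active throughout the intestinal epithelium, enteroendocrine cells included. Both genotypes received DSS (dextran sodium sulphate), which injures the colonic epithelium, so an effect of DSS itself cannot be read from these libraries. Colitis was induced in mice 2 months old. The day of DSS on which the RNA was taken and the section of colon used are not given in the sources used here. The labels do not say whether each library came from a separate mouse, and p-values measure the spread between libraries.

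Enteroendocrine cells arise from crypt progenitors that pass through Atoh1 and Neurog3 expression, then Neurod1, before they turn on hormone genes. In the mouse colon the most frequent kinds are L cells, which make PYY, proglucagon (the precursor of GLP-1 and GLP-2) and, towards the distal end, INSL5, and enterochromaffin cells, which make serotonin through TPH1. D cells with somatostatin are scarcer, and CCK and neurotensin are mainly hormones of the small intestine. These cells are a small share of the epithelium. In bulk RNA, fewer cells of a type and less RNA per cell cannot be told apart.

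Nsd2, the targeted histone H3K36 methyltransferase, lies at chr5:33820725-33897975 of GRCm38. Its level was 47.9, 51.2 and 24.6 CPM (counts scaled to library size with TMM factors) in the f/f libraries 1, 2 and 3 and 24.2, 10.4 and 20.8 CPM in the Vil-KO libraries 1, 2 and 3. The Vil-KO libraries were all below the f/f libraries, but the library labelled f/f replicate 3 sat next to Vil-KO replicate 1. The estimate was −1.16 on the log2 scale (SE 0.39, unadjusted p = 0.0217 and adjusted p = 0.992 by edgeR). Without f/f replicate 1 the unadjusted p by edgeR was 0.0617, and without f/f replicate 2 it was 0.0738. Nsd2 passed the screening criterion given below in 15 of 18 other ways of processing. It did not pass without f/f replicate 1 (−1.04), without f/f replicate 2 (−0.97) or with library size only (−1.12). It passed in the 4 libraries without Xist RNA, set out below (−1.13), and with Xist as a covariate (−1.17). Totals ran from 15439123 to 18365555 counts in f/f and from 18053077 to 20350539 in Vil-KO, where 3 counts correspond to between 0.146 and 0.242 CPM. The libraries labelled f/f replicate 3 and Vil-KO replicate 2 stood apart: their mean Spearman correlation with the other 4 was 0.933, against 0.981 among those 4, and only these held Xist RNA above a few counts, with 4296 and 3684. Mitochondrial genes took 19.6% of counts in f/f replicate 3 and 5.51% to 9.13% in Vil-KO.

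The promoters of the 3 L-cell hormone genes are shown because these genes gave most of the reads of the 10 genes examined. They are RefSeq windows on GRCm38.p6, from 250 bases before the start to 50 after it, on the gene's strand. Capitals mark CAGNTG on either strand, the E-box form that NEUROD1 is known to bind, and TATAAA on the gene's strand. The Pyy window is chr11:102107783-102108082, minus strand.
Pyy: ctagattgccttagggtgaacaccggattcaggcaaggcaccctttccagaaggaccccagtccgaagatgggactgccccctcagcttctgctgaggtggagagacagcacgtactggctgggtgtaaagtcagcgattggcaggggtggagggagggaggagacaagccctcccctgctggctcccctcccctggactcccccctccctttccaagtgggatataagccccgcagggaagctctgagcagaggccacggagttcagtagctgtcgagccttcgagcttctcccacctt
The Gcg window is chr2:62483604-62483903, minus strand.
Gcg: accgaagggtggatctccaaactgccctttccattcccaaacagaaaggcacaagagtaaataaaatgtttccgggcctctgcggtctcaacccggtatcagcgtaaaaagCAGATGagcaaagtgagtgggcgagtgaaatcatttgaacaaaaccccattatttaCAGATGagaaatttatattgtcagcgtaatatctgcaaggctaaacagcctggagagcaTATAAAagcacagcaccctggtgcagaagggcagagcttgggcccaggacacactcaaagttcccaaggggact
The Insl5 window is chr4:103026679-103026978, minus strand, the second of its RefSeq starts and the one nearer to the GENCODE gene start.
Insl5: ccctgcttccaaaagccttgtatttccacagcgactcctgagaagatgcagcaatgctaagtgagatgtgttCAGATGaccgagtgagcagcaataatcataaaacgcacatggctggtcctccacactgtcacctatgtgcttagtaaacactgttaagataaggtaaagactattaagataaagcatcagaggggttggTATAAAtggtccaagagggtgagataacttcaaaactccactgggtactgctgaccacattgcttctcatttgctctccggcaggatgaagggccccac
The Gcg window held 2 CAGNTG motifs and a TATAAA 24 bases before the start. The Insl5 window held 1 CAGNTG and a TATAAA 49 bases before the start, and the Pyy window held neither. Of 32851 mouse promoter windows of this length, 51.4% held CAGNTG and 8.32% held TATAAA, so a match is a description of the sequence and not of a bound site.

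Between genotypes, 0 of the 9 tested genes passed the screening criterion of a fold change above 1.2 with an unadjusted p below 0.05, where 3.29% of the 14650 tested genes passed it, 1.65% higher and 1.65% lower in Vil-KO. An unadjusted p below 0.05 was likewise reached by 482 genes and by 0 of the 9. At an adjusted p below 0.05 edgeR called 0 genes in the whole table, DESeq2 4 and limma-voom 0, and none of these was one of the 9. The log2 fold changes (Vil-KO minus f/f) ran from −0.91 for Insl5 to 0.79 for Tph1, with 7 estimates below 0 and 2 above, and their median was −0.45 against 0.00 over all tested genes. Pyy was the gene nearest the criterion and the only one of the 9 whose genotypes did not overlap, being lower in Vil-KO, a pattern that 4.7% of all tested genes showed in that direction, 5.21% in the other and 9.9% in either. Summed over the 10 genes, CPM was 160.4, 142 and 226 in f/f and 127, 116 and 138 in Vil-KO. The sum was thus below the f/f range in each Vil-KO library, with f/f replicate 3 far above the rest. Pyy was the largest part of the sum in each library, at 47.9, 58.7 and 92.7 CPM in f/f and 38.2, 47.3 and 44.6 CPM in Vil-KO. The sum is therefore not independent of Pyy and is not a separate result for the 10 genes. Its order of libraries differed from that of Pyy. Among the Vil-KO libraries, replicate 2 was lowest for the sum and highest for Pyy. The median estimate was −0.23 without f/f replicate 3, −0.43 without Vil-KO replicate 2 and −0.19 in the 4 libraries without Xist RNA. It also depended on libraries that do not stand apart, being −0.23 without f/f replicate 1, −0.65 without f/f replicate 2 and −0.23 without Vil-KO replicate 3.

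**Figure D1:**
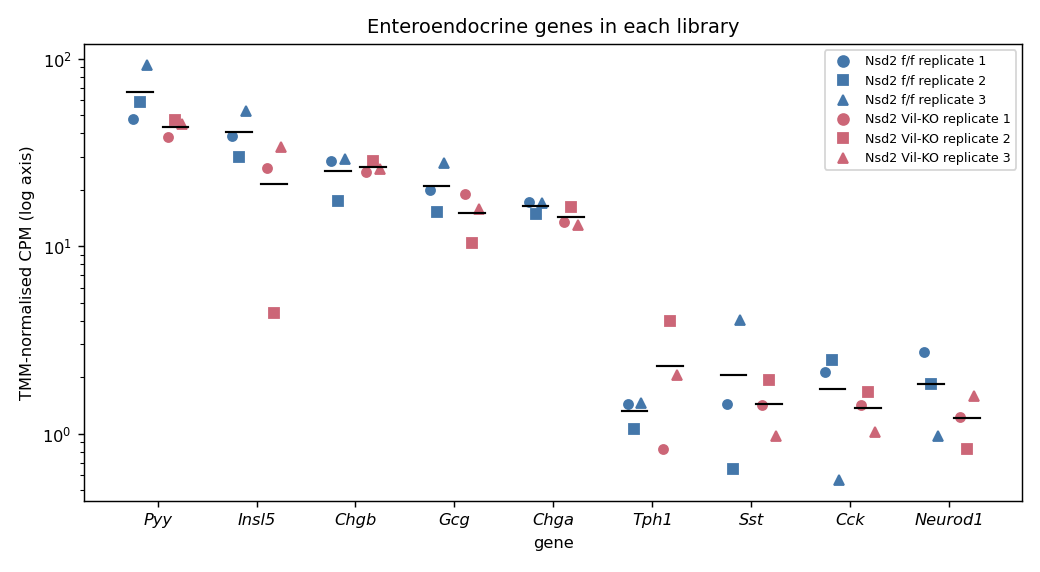
Level of the 9 tested enteroendocrine genes in each library, in CPM on a log axis, with f/f and Vil-KO libraries as points marked by replicate and the black lines at the arithmetic group means. Only Pyy has its 3 Vil-KO points, at 38.2 to 47.3 CPM, below its 3 f/f points, at 47.9 to 92.7 CPM, and Insl5 in Vil-KO replicate 2 lies far below the rest at 4.38 CPM.

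Pyy (peptide YY, chr11:102106676-102107832) slows gut transit and curbs appetite. It stood at 47.9, 58.7 and 92.7 CPM in f/f and at 38.2, 47.3 and 44.6 CPM in Vil-KO. The f/f libraries spread widely and the Vil-KO libraries lay close together, and the highest Vil-KO value came within 1 CPM of the lowest f/f value. Group means were 66.4 ± 23.4 CPM in f/f and 43.4 ± 4.70 CPM in Vil-KO (SD, n = 3 each). The estimate was −0.61 (SE 0.27), with an unadjusted p of 0.0545 and an adjusted p of 0.992 by edgeR. An exact two-sided permutation test gave p = 0.1, the smallest that 3 against 3 libraries allow. Pyy passed the criterion in 7 of 18 other ways of processing, among them the fit without f/f replicate 1 (−0.80) and that of the 4 libraries without Xist RNA (−0.35). Without f/f replicate 3, the highest library, the estimate was −0.29 and did not pass.

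Gcg (chr2:62474530-62483650) encodes proglucagon, which L cells cut into GLP-1 and GLP-2. Its levels were 20.02, 15.2 and 27.7 CPM in f/f and 19.0, 10.4 and 15.7 CPM in Vil-KO. Vil-KO replicate 2 was lowest and f/f replicate 3 highest, with the other 4 libraries mixed between 15.2 and 20.02 CPM. The estimate of −0.48 (SE 0.32, unadjusted p = 0.178 by edgeR) came to −0.02 in the 4 libraries without Xist RNA.

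Insl5 (chr4:103017872-103026842) encodes an insulin-like peptide of colonic L cells that acts through RXFP4. It stood at 38.9, 29.7 and 52.5 CPM in f/f and at 26.2, 4.38 and 33.8 CPM in Vil-KO. The low library was Vil-KO replicate 2, with 79 counts where the other 5 held 503 to 785, while Vil-KO replicate 3 lay inside the f/f range. The estimate was −0.91 (SE 0.64, unadjusted p = 0.197 by edgeR). Without Vil-KO replicate 2 it was −0.43, and in the 4 libraries without Xist RNA it was −0.19.

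Within the L-cell group, the CPM ratio of Insl5 to Gcg was steady in f/f at 1.94, 1.95 and 1.90. In Vil-KO it was 1.38, 0.420 and 2.15, so only replicate 2 had less Insl5 than Gcg. Pyy did not share that low point, since its ratio to Gcg was 2.39, 3.85 and 3.35 in f/f and 2.01, 4.54 and 2.85 in Vil-KO. Neither ratio separated the genotypes (exact two-sided permutation p = 0.4 for Insl5 to Gcg and 0.9 for Pyy to Gcg).

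Chga (chromogranin A, chr12:102554969-102565028) is a core protein of hormone granules and the usual marker of enteroendocrine cells of all kinds. Its levels lay close together, at 17.3, 14.8 and 16.9 CPM in f/f and 13.5, 16.3 and 12.98 CPM in Vil-KO. Vil-KO replicate 2 fell within the f/f range and the other Vil-KO libraries just below it. Its estimate was −0.20 (SE 0.22, unadjusted p = 0.388 by edgeR), and it stayed between −0.30 and −0.13 whichever library was left out.

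Chgb (chr2:132781278-132795079), the second chromogranin, was at 28.5, 17.5 and 29.1 CPM in f/f and 24.9, 28.6 and 25.7 CPM in Vil-KO. Here f/f replicate 2 was the low library and the Vil-KO libraries lay between the f/f values. The estimate of 0.08 (SE 0.24, unadjusted p = 0.758 by edgeR) turned to −0.12 without f/f replicate 2.

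Tph1 (chr7:46644641-46672537) encodes the rate-limiting enzyme of serotonin synthesis in enterochromaffin cells. Its levels were low: 1.44, 1.06 and 1.45 CPM in f/f and 0.829, 3.99 and 2.04 CPM in Vil-KO, from 17 to 72 counts. The lowest and the highest library were both Vil-KO, the highest being replicate 2, where Insl5 was lowest. The estimate was 0.79 (SE 0.61, unadjusted p = 0.238 by edgeR), and 0.12 without that library. The CPM ratio of Insl5 to Tph1 was 27.1, 27.9 and 36.1 in f/f and 31.7, 1.10 and 16.5 in Vil-KO.

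Sst (somatostatin, chr16:23889573-23890958) is the inhibitory hormone of D cells. It stood at 1.44, 0.650 and 4.04 CPM in f/f and at 1.41, 1.94 and 0.971 CPM in Vil-KO. Both the lowest and the highest library were f/f, and the Vil-KO libraries lay between them. The estimate of −0.45 (SE 0.68, unadjusted p = 0.532 by edgeR) rested on f/f replicate 3, without which it was 0.44.

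Cck (chr9:121489824-121495694), which in the small intestine drives gall bladder contraction, was at 2.13, 2.48 and 0.566 CPM in f/f and at 1.41, 1.66 and 1.02 CPM in Vil-KO. In f/f replicate 3, where Sst was highest, Cck was lowest, from 7 counts. The estimate was −0.38 (SE 0.56, unadjusted p = 0.518 by edgeR). It was −0.05 without f/f replicate 2, −0.21 without f/f replicate 1 or Vil-KO replicate 3, −0.75 without f/f replicate 3 and −0.90 in the 4 libraries without Xist RNA. Nts (neurotensin, chr10:102481756-102490486) had 2, 1 and 0 counts in f/f and 14, 3 and 0 in Vil-KO, and was not tested. Apart from the 14 counts of Vil-KO replicate 1, Nts was at or under 3 counts in each library.

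Neurod1 (chr2:79452521-79456751), a basic helix-loop-helix factor that enteroendocrine precursors switch on after Neurog3, was at 2.73, 1.83 and 0.969 CPM in f/f and at 1.22, 0.832 and 1.58 CPM in Vil-KO. The f/f libraries spanned the Vil-KO range except for its lowest point. The estimate was −0.63 (SE 0.50, unadjusted p = 0.248 by edgeR) and stayed below 0, from −0.91 to −0.23, whichever library was left out. Of its exon bases, 355 overlap Cerkl and Gm26755, and reads there could be counted for either gene.

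**Figure D2:**
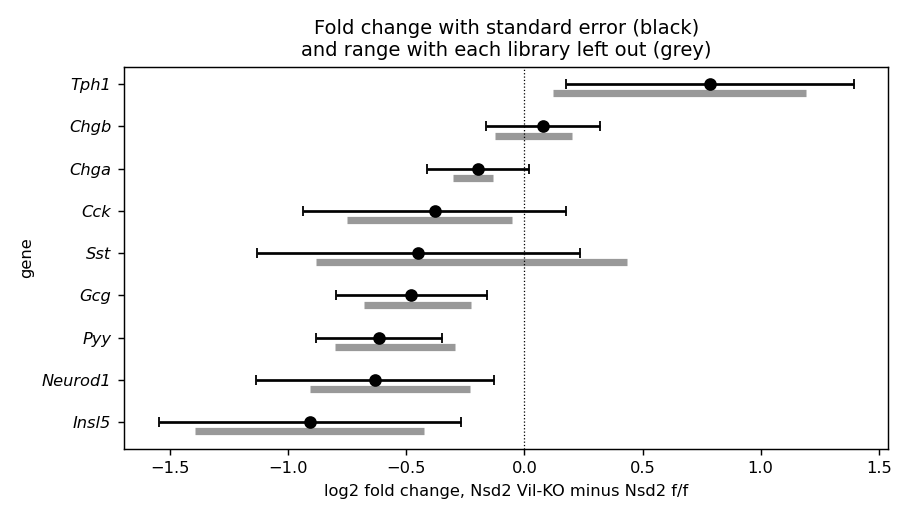
Log2 fold change of each tested enteroendocrine gene (Vil-KO minus f/f) with its SE from edgeR, and in grey the range of estimates when each library was left out in turn. The estimates run from −0.91 for Insl5 to 0.79 for Tph1, and the grey ranges of Chgb and Sst cross 0.

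On a scale per length (CPM per kilobase of exon, mean of 6 libraries), Pyy was highest at 87.0, followed by Insl5 at 42.7, Gcg at 12.1, Chgb at 9.38 and Chga at 5.54. The remaining levels were 2.42 for Sst, 1.18 for Cck, 0.559 for Neurod1, 0.292 for Tph1 and 0.134 for Nts. The 3 L-cell hormones thus held the top places among the 10 genes, although Tac1, which is not one of them, stood at 26.9 on the same scale, above Gcg. The length joins all annotated exons of a gene, 6172 bases for Tph1 and 721 for Sst, and it sets the low place of Tph1. Before division by length, mean CPM was 1.80 for Tph1, 1.74 for Sst, 1.55 for Cck and 1.53 for Neurod1. Pyy was above Insl5 in 6 of 6 libraries, with a mean log2 ratio of 1.28 ± 1.18 (SD). The step from Gcg to Chgb was 0.32 ± 0.50, that from Sst to Cck 0.94 ± 1.56 and that from Neurod1 to Tph1 1.02 ± 1.202, each less than its SD, so these neighbours did not differ beyond the spread. Chgb exceeded Chga by 0.75 ± 0.26 and Chga exceeded Sst by 1.44 ± 0.81, each in 6 of 6 libraries.

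To describe the mix of products rather than their amount, each gene was set against Chga in the same library, as a log2 ratio of CPM plus 0.5. Of the 8 tested ratios, only Chgb to Chga had genotypes that did not overlap, at 0.70, 0.24 and 0.77 in f/f and 0.86, 0.79 and 0.96 in Vil-KO. The difference in means was 0.30, with an exact two-sided permutation p of 0.1, the smallest possible, and 0.8 after adjustment over the 8 ratios. Insl5 to Chga differed by −1.08 (exact permutation p = 0.4), but by 0.08 in the 4 libraries without Xist RNA, since the ratio was −1.78 in Vil-KO replicate 2 and 0.94 to 1.61 elsewhere. The differences were −0.36 for Pyy, −0.27 for Gcg, −0.21 for Neurod1, 0.01 for Sst, 0.06 for Cck and 0.65 for Tph1, with exact permutation p values from 0.4 to 1.

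**Figure D3:**
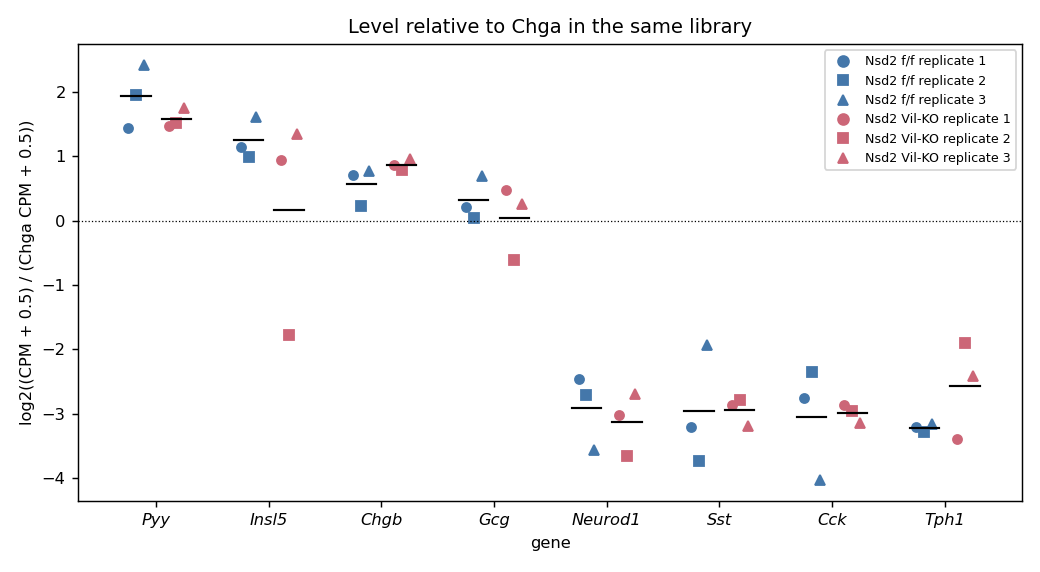
Level of each enteroendocrine gene relative to Chga in the same library, as log2 ratio of CPM plus 0.5, with 1 point per library and black lines at the group means. Chgb is the only gene whose Vil-KO points, from 0.79 to 0.96, all lie above its f/f points, and the Insl5 point of Vil-KO replicate 2 lies at −1.78.

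Of 12 other gut peptide genes listed, 3 had enough counts to be tested and 1 of them, Ppy, passed the criterion, being lower in Vil-KO. Ppy (pancreatic polypeptide) is the neighbour of Pyy on chromosome 11, 5356 bases away, and encodes a peptide of the same family. Its counts were 33, 42 and 94 in f/f and 13, 13 and 23 in Vil-KO, or 1.64, 2.48 and 7.59 CPM against 0.634, 0.721 and 1.17 CPM. The Vil-KO libraries were all below the f/f libraries, and f/f replicate 3 was again highest, as for Pyy. Ppy fell by 2.16 on the log2 scale (SE 0.69, unadjusted p = 0.0167 and adjusted p = 0.992 by edgeR). Without f/f replicate 3 the estimate was −1.27 and still passed, while without Vil-KO replicate 1 (−1.99) or in the 4 libraries without Xist RNA (−1.16) it did not. The exact permutation p was 0.1.

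Pancreas tissue would also bring Ppy RNA. Of 8 pancreas markers none had enough counts to be tested, Ins1 and Ins2 were at 0 in each library, and the summed level was 17.9, 3.25 and 0.0808 CPM in f/f and 0 to 0.731 CPM in Vil-KO. The part of pancreas RNA in the Ppy values was not tested. Tac1, which encodes substance P and is made by enterochromaffin cells and neurons, was at 116, 56.2 and 15.4 CPM in f/f and 102, 121 and 138 CPM in Vil-KO (estimate 0.94, SE 0.61). Sct (secretin) was at 1.34, 1.36 and 6.38 CPM in f/f and 1.85, 1.55 and 1.79 CPM in Vil-KO (estimate −0.75, SE 0.68). As with Ppy, the highest Sct library was f/f replicate 3. It was also the highest library for 5 of the 9 tested enteroendocrine genes (55.6%), against 23.7% of all tested genes. Those 5 were Pyy, Insl5, Gcg, Chgb and Sst.

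Among 26 transcription factors of the enteroendocrine lineage, 18 were tested, 12 with estimates below 0 and 6 above (median −0.19), and 1 passed the criterion. This was Hes6, a neural-type factor of early secretory precursors, at 108, 99.7 and 109 CPM in f/f and 87.1, 60.1 and 78.1 CPM in Vil-KO. All Vil-KO values lay below the f/f values. Hes6 fell by 0.49 (SE 0.19, unadjusted p = 0.0348 and adjusted p = 0.992 by edgeR). It lost the call in 7 of 18 other settings: with library size only (−0.42), with no filter (−0.48), with the replicate block (−0.51), and without f/f replicate 1, 2 or 3 or without Vil-KO replicate 3, where the estimates were −0.47, −0.53, −0.47 and −0.52. In the 4 libraries without Xist RNA it passed, at −0.32.

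Neurog3, the master factor of the lineage, was at 1.59, 1.36 and 0.808 CPM in f/f and 0.585, 0.499 and 0.868 CPM in Vil-KO (estimate −0.96, SE 0.48, unadjusted p = 0.0844 by edgeR). Only Vil-KO replicate 3 reached the f/f range. Atoh1, which commits progenitors to all secretory fates, was at 99.6, 84.2 and 80.8 CPM in f/f and 70.3, 40.3 and 73.5 CPM in Vil-KO (estimate −0.52, SE 0.26, unadjusted p = 0.0796 by edgeR). Rfx3 was at 7.43, 4.85 and 3.88 CPM in f/f and 2.78, 0.444 and 3.22 CPM in Vil-KO (estimate −1.32, SE 0.64). These 2 factors and Hes6 were the tested factors whose Vil-KO values all lay below f/f, 3 of 18, where 4.7% of all tested genes did. In the lists described below it was 1 of 25 granule genes, 0 of 11 serotonin genes, 0 of 8 sensing receptors and 1 of 6 hormone receptors. Vil-KO replicate 2 was the lowest library for 11 of the 18 tested factors (61.1%), against 29.2% of all tested genes. For those later lists, in the same order, this share was 36%, 36.4%, 37.5% and 50%. Foxa1 and Cdx2, factors of the gut epithelium at large, had estimates of −0.07 (SE 0.19) and 0.52 (SE 0.29).

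Of 31 genes for prohormone cutting, granules and their release, 25 were tested and 0 passed, with 15 estimates above 0, 10 below and a median of 0.05. Pcsk1, the protease that frees GLP-1 from proglucagon, was at 7.73, 3.66 and 2.75 CPM in f/f and 4.05, 3.16 and 2.61 CPM in Vil-KO (estimate −0.54, SE 0.47), and the genotypes overlapped. The 4 most abundant were Cpd, Pam, Vamp2 and Ica1, which other epithelial cells also express, with estimates of 0.14, 0.28, 0.27 and 0.53. Ica1 was at 105 CPM in Vil-KO replicate 2 and 32.7 to 46.6 CPM elsewhere.

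Of 12 genes that make, store or clear serotonin beside Tph1, 11 were tested and 0 passed, with 10 estimates below 0 and a median of −0.32. Ddc, which turns 5-hydroxytryptophan into serotonin, was at 38.7, 60.0 and 150 CPM in f/f and 41.0, 25.1 and 64.1 CPM in Vil-KO (estimate −0.93, SE 0.54). Slc18a1, the vesicular carrier of enterochromaffin cells, was at 2.63 to 3.01 CPM in f/f and 1.83 to 3.01 CPM in Vil-KO. Slc6a4, the serotonin transporter of enterocytes, overlapped as well, at 11.3 to 28.9 and 6.87 to 28.7 CPM. The most abundant of the list, Maoa, Spr and Gch1, had estimates of −0.53 (SE 0.46), −0.50 (SE 0.27) and 0.18 (SE 0.16). Their mean levels were 559, 89.7 and 73.9 CPM, against 1.80 CPM for Tph1. Since it also holds Slc6a4 of enterocytes, the list does not describe enterochromaffin cells alone. In this list f/f replicate 3 was the highest library for 7 of 11 genes (63.6%), against 23.7% of all tested genes.

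Nutrient and metabolite receptors through which these cells are triggered were mostly too low to test: 8 of 20 were tested, 0 passed, and the median estimate was 0.01. Ffar2, a receptor for short-chain fatty acids, was at 23.9, 13.6 and 14.1 CPM in f/f and 16.8, 6.66 and 15.6 CPM in Vil-KO (estimate −0.40, SE 0.41). The long-chain fatty acid receptor Ffar4 stood at 36.7, 34.7 and 15.8 CPM in f/f and 32.5, 28.9 and 34.4 CPM in Vil-KO (estimate 0.13, SE 0.32). Both overlapped between genotypes. Estimates for Slc5a1, the glucose transporter SGLT1, and Lpar5 were −0.30 (SE 0.21) and 0.55 (SE 0.34).

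On the receiving side, 6 of 21 receptors for the listed hormones and serotonin were tested, all 6 with estimates below 0 (median −0.78), and 0 passed. Npy1r, a receptor for PYY and related peptides on colon epithelium, was at 7.63, 7.21 and 6.14 CPM in f/f and 5.36, 0.111 and 6.54 CPM in Vil-KO. Htr4, a serotonin receptor, was at 22.4, 17.7 and 23.3 CPM in f/f and 17.9, 2.27 and 15.1 CPM in Vil-KO. In both genes, as in Insl5, 1 Vil-KO library, replicate 2, was far below the other 5. Sstr1, a somatostatin receptor, had 1 library far above the rest, f/f replicate 3 at 18.7 CPM against 0.817 to 2.16 CPM elsewhere. Sort1, a sorting receptor that also binds neurotensin and was the most abundant of the list, had an estimate of −0.06 (SE 0.28). Of the 21 genes, 5 were at 0 counts in each library, namely Gcgr, Ntsr1, Ntsr2, Cckbr and Sstr4, and Rxfp4, the receptor for INSL5, reached at most 0.242 CPM.

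**Figure D4:**
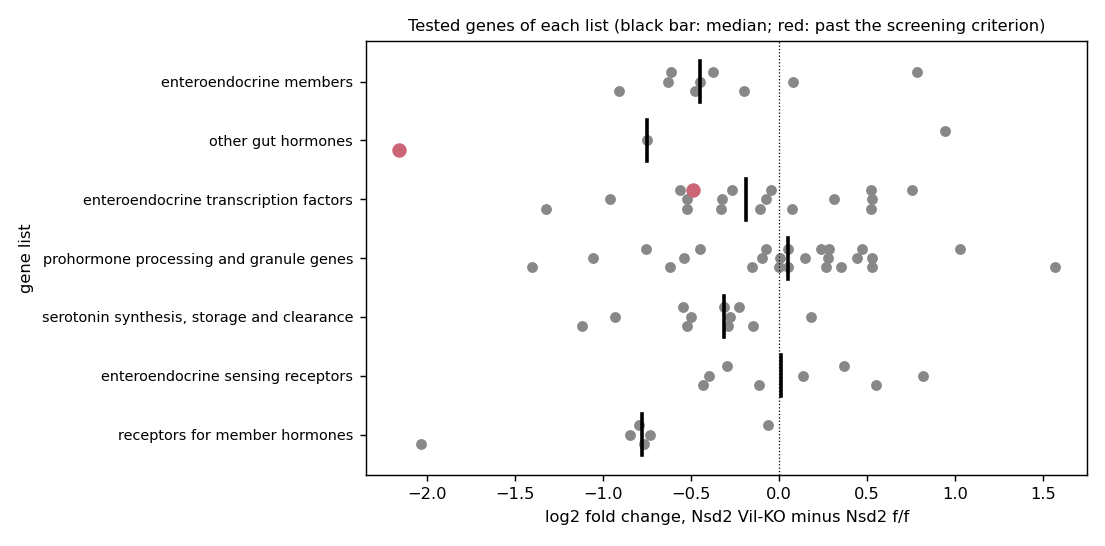
Log2 fold changes (Vil-KO minus f/f) of the tested genes in each list of the enteroendocrine pathway, with 1 point per gene, a black line at the list's median, and in red Ppy and Hes6, which passed the screening criterion. The medians are −0.45 for the 9 enteroendocrine genes, −0.19 for lineage factors, 0.05 for granule genes and −0.32 for serotonin genes, with Ppy at −2.16 as the lowest point of the other gut hormones.

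The labelled cell type was checked on its markers: all 13 epithelial markers were tested, with summed levels of 17541.9 to 30149.2 CPM in f/f and 19530.9 to 27455.8 CPM in Vil-KO, and 0 passed. Enteric neurons, which also express chromogranins, Tac1 and Sst, left few reads: 1 of 13 neuron and glia markers was tested, and the list summed to 1.30 to 2.82 CPM in f/f and 0.888 to 1.95 CPM in Vil-KO. Mast cells are another source of Tph1, and 6 of 12 mast cell markers were tested with 0 passing. All 6 had estimates below 0, with a median of −0.48. The 12 summed to 69.6 to 141 CPM in f/f and 34.8 to 74.7 CPM in Vil-KO, lowest in Vil-KO replicate 2. The highest sum, in f/f replicate 1, held 59.8 CPM of Hdc, which was at 0.727 to 9.70 CPM elsewhere. Vil-KO replicate 2 was the lowest library for 3 of the 6 tested mast cell markers. Kit was at 32.5, 7.77 and 37.9 CPM in Vil-KO. Mcpt1 was at 15.2, 15.3 and 20.7 CPM there and Mcpt2 at 7.56, 7.93 and 10.4 CPM. Tpsab1 was at 0 throughout. The part of mast cell RNA in the Tph1 values was not tested. Leukocyte markers (12 of 12 tested, 0 passed) summed to 222 to 978 CPM in f/f and 229 to 2355 CPM in Vil-KO, with the maximum in Vil-KO replicate 2. Stromal and muscle markers (12 of 12 tested) summed to 14.8 to 327 CPM and 15.9 to 98.3 CPM, and 1 passed, Pecam1, which fell by 1.33 but did not pass in 9 of 17 other settings.

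Other secretory cells share the Atoh1 step with enteroendocrine cells. All 10 goblet markers had estimates below 0. They summed to 14284.5 to 16525.6 CPM in f/f and 9989.58 to 11224.6 CPM in Vil-KO, which do not overlap. Taken singly, 2 of the 10 had all Vil-KO values below f/f, where 4.7% of all tested genes did. The criterion was passed by 1 of the 10, Clca1, which fell by 1.64. It did not pass without f/f replicate 3 (−1.06), without Vil-KO replicate 1 (−1.77) or in the fit with an Xist term (−1.65). The estimate was −0.64 in the 4 libraries that lack Xist RNA, where it passed. Among 9 tested tuft cell markers, 5 had estimates above 0 and 4 below, down to −1.65. The 10 listed tuft markers summed to 392 to 490 CPM in f/f and 304 to 510 CPM in Vil-KO, which overlap. The criterion was passed by 2 of the 9, where 3.29% of all tested genes passed it. Of these, Avil rose by 2.13 and passed in 18 of 18 other settings. Its size rested on Vil-KO replicate 2, at 30.4 CPM against 7.995 and 8.12 CPM in the other Vil-KO libraries, and the estimate was 1.19 without that library and 1.00 in the 4 libraries without Xist RNA. Sh2d6 rose by 1.37 but did not pass in 6 of 18, among them the fits without f/f replicate 1 (1.21), f/f replicate 2 (1.06), Vil-KO replicate 1 (1.49) or Vil-KO replicate 2 (0.91). The other 7 tuft markers did not pass. Position along the gut bears on which hormones are made, and here 0 of 7 tested distal colon genes and 0 of 8 tested small intestine genes passed. The distal list summed to 552, 708 and 1044 CPM in f/f and 555, 535 and 628 CPM in Vil-KO, and the small intestine list to 43.6, 27.0 and 103 CPM and 41.4, 137 and 19.3 CPM. By sum, both libraries that stand apart were thus highest for the small intestine list, and f/f replicate 3 was highest for the distal list too. Gene by gene, f/f replicate 3 was highest for 2 and lowest for 3 of the 8 tested small intestine genes. Vil-KO replicate 2 was highest for 4 of those 8 and lowest for 0. Of the 7 tested distal genes, f/f replicate 3 was highest for 2 and lowest for 2. The part of these markers in the values of the hormones was not tested.

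The tested genes outside the list whose pattern over the 6 libraries was most like the mean of the 9 enteroendocrine genes were Gm8121, Eef1akmt4, 4632415L05Rik, Tmem159, Lsm14b, Elp6, D930036K23Rik, Vhl, Rps6ka5 and Vezf1. They came from 13332 candidates, with Pearson correlations from 0.938 to 0.974. All values come from the same 6 libraries, 2 of which stand apart, so the likeness is a description.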

How the data were processed

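RNA-seq of colon IECs gave 6 libraries, grouped by the genotype in their labels. The authors deposited whole-number counts per Ensembl gene, unfiltered and not normalised, made from polyA-selected reads trimmed with Cutadapt and Trimmomatic and aligned to GRCm38 (mm10) with HISAT2. How reads were counted, and whether strand was used, is not given in the sources used here. The library kit differs between the labels and the methods. All sample columns were used (0 left out). In R 4.3.3, edgeR 4.0.16 was applied with TMM factors, filterByExpr by genotype and a robust quasi-likelihood test without covariates, with Benjamini-Hochberg adjustment over the 14650 tested genes. The SE is the absolute log2 fold change divided by the square root of F. CPM used TMM-scaled totals of the tested genes. The screening criterion took the fold change above 1.2 and p below 0.05 of the study's results, with p read as unadjusted. The study's methods name an adjusted p instead, so both were counted. Alternatives used DESeq2 1.42.0 and limma 3.58.1. The script was tested on simulated data. The genes and lists were chosen with earlier results of these data known. Named were the 10 genes, those of each list past the criterion or otherwise its 4 most abundant (marker lists with none past it are given as sums), the 10 most alike in pattern (mean of at least 1 CPM), Nsd2 and Xist. Other genes named were chosen after their values were seen. Coordinates and exon lengths came from GENCODE vM21, promoters from RefSeq.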

Additional observations from a re-analysis of the deposited data

How the results depend on the processing

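No enteroendocrine gene reached an adjusted p below 0.05 under any alternative run, and in the whole table DESeq2 alone called genes at that level (4). The 482 genes past the criterion became 861 with no filter, 1440 with limma-voom, 303 with the replicate block, 1646 in the 4 libraries without Xist RNA, 1145 with Xist as a covariate and 323 to 769 with 1 library left out (323 without f/f replicate 2, 769 without Vil-KO replicate 2). The 0 enteroendocrine genes past it became 1, Pyy, under library size only, no filter, at least 10 counts in each library, limma-voom, the 4 libraries and the Xist covariate, and 1, Insl5, with the replicate block (estimate −1.28). With 1 library left out the count was 0 to 1, Pyy passing without f/f replicate 1. The median of −0.45 became −0.26 with limma-voom, −0.22 with the block, −0.19 in the 4 libraries, −0.30 with the covariate and −0.65 to −0.23 with 1 library left out. Signs reversed for Chgb without f/f replicate 2 (−0.12, with a range of −0.12 to 0.20 over libraries left out) and for Sst under limma-voom (0.22), without f/f replicate 3 (0.44, with a range of −0.88 to 0.44) and in the 4 libraries (0.17). Among the estimates for single enteroendocrine genes under alternatives, 149 kept their direction and side of the criterion, 8 newly passed and 4 reversed. After each genotype's mean log2 CPM was subtracted from each gene, the deviations of same-numbered libraries correlated at 0.32, −0.35 and −0.11. With 3 libraries per genotype, 1 of which stands apart in each, these values cannot settle whether replicate numbers pair the libraries. The older edgeR quasi-likelihood method, added after the data were seen, gave 434 genes and none of the 9. The 4 libraries without Xist RNA and the Xist covariate were likewise defined from the counts themselves. The cause of these shifts was not tested. Genes near 1 CPM, such as Sst, Cck, Tph1 and Neurod1, rest on 7 to 72 counts in each library.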
